A study of Homo sapiens with 12 samples.

Results

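The collagen genes measured here are all genes whose symbol is COL, a number, A and a number, 41 of the 33616 genes that had a single symbol on the array. Each gene was represented by its brightest probe set. The arrays were Human Affymetrix Clariom D arrays of Ewing sarcoma (EwS) cells, and the values are log2 signals, so that a difference of 1 is a 2-fold difference in signal. The study silenced PRC1, whose product bundles spindle microtubules for cytokinesis, and asked which genes change with it.

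SK-N-MC and RDES, both established EwS cell lines, had been transduced with a doxycycline (Dox)-inducible hairpin against the PRC1 coding sequence (shCDS), against its untranslated region (shUTR), or against no gene (shCtrl). Each of the 6 derivative lines was kept for 60 h without Dox or with 1 µg/ml Dox, and 1 array was hybridized per condition. The transduced cells were selected with puromycin, and all carry the vector. The 8 arrays of the shCDS and shUTR lines are called shPRC1 arrays. As 1 array stands for a condition, the 2 derivative lines of a cell line served as its replicates. The p-values rest on the spread between those lines, which the moderated test used below combines with the spread over all genes. The lines carry different hairpins, and the spread between repeat cultures of a line was not measured. Below, the 4 shPRC1 arrays of a cell line are listed in the order shCDS Dox (−), shCDS Dox (+), shUTR Dox (−) and shUTR Dox (+), and each shCtrl pair as Dox (−) and Dox (+).

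Collagens are trimers of chains wound into a triple helix, and each chain is the product of its own gene. Fibrillar collagens, such as types I, V and XI, assemble into the banded fibrils that give bone, skin and cartilage their strength. Type IV forms the sheet of basement membranes, type VI forms beaded filaments around cells, and the FACIT collagens sit on the surface of fibrils. Chains are hydroxylated and folded in the endoplasmic reticulum, trimmed after secretion and crosslinked outside the cell. EwS arises in bone and soft tissue and is built of small round cells with little matrix of their own.

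PRC1 was lower with Dox in all 4 shPRC1 lines, with log2 differences of −4.02 (shCDS) and −2.93 (shUTR) for SK-N-MC and −3.96 (shCDS) and −1.47 (shUTR) for RDES, against −0.11 and −0.03 for the lines labelled SK-N-MC shCtrl and RDES shCtrl. Some arrays went against their label. STAG2, a cohesin subunit, was at 13.78 to 14.01 over the 4 shPRC1 arrays of RDES and at 5.84 to 6.06 over those of SK-N-MC, and the 2 arrays labelled RDES shCtrl lay with those of SK-N-MC at 6.10 and 6.01. The SK-N-MC shCtrl pair, at 9.15 and 9.32, lay with neither, so each shCtrl pair stood apart from the shPRC1 arrays of its label. The collagen levels of the cell lines were therefore compared over the 8 shPRC1 arrays, with the shCtrl arrays set beside them. All 6 measured EwS markers of a list of 7, among them CD99 and NKX2-2, were above background, and the 7 endothelial markers were all at background in both cell lines, while 2 of 5 haematopoietic and 2 of 6 epithelial markers reached the floor.

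A mean under 6.5 over the 4 shPRC1 arrays of a cell line was called background. The study's methods apply the same value to the mean without Dox, as a filter on genes, and its use on line means here is an extension. Of the 41 collagen genes, 20 reached 6.5 in at least 1 cell line, as did 48.5% of all genes. Of these, 10 did so in both cell lines, 4 in SK-N-MC only and 6 in RDES only. The other 21 were at background in both lines, with line means from 3.76 to 6.42. Those at background were COL2A1 and COL5A3 of the fibrillar class, COL4A2, COL4A4 and COL4A6 of type IV, COL6A3, COL6A5 and COL6A6 of type VI, the short-chain collagens COL8A1, COL8A2 and COL10A1, the FACIT collagens COL9A1, COL9A2, COL9A3, COL14A1, COL16A1, COL19A1, COL20A1 and COL22A1, the transmembrane COL13A1, and COL26A1. Above background were 8 of 10 fibrillar members, 3 of 6 type IV, 2 of 5 type VI, 2 of 10 FACIT, 2 of 3 transmembrane, both multiplexins and 1 of 2 others. Of the type IV members, COL4A3 was above it only on a probe set without an Entrez ID. The members nearest the floor were COL12A1 at 6.53, COL25A1 at 6.57 and COL24A1 at 6.59 above it, and COL4A2 at 6.42, COL20A1 at 6.40 and COL5A3 at 6.36 under it.

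**Figure D1:**
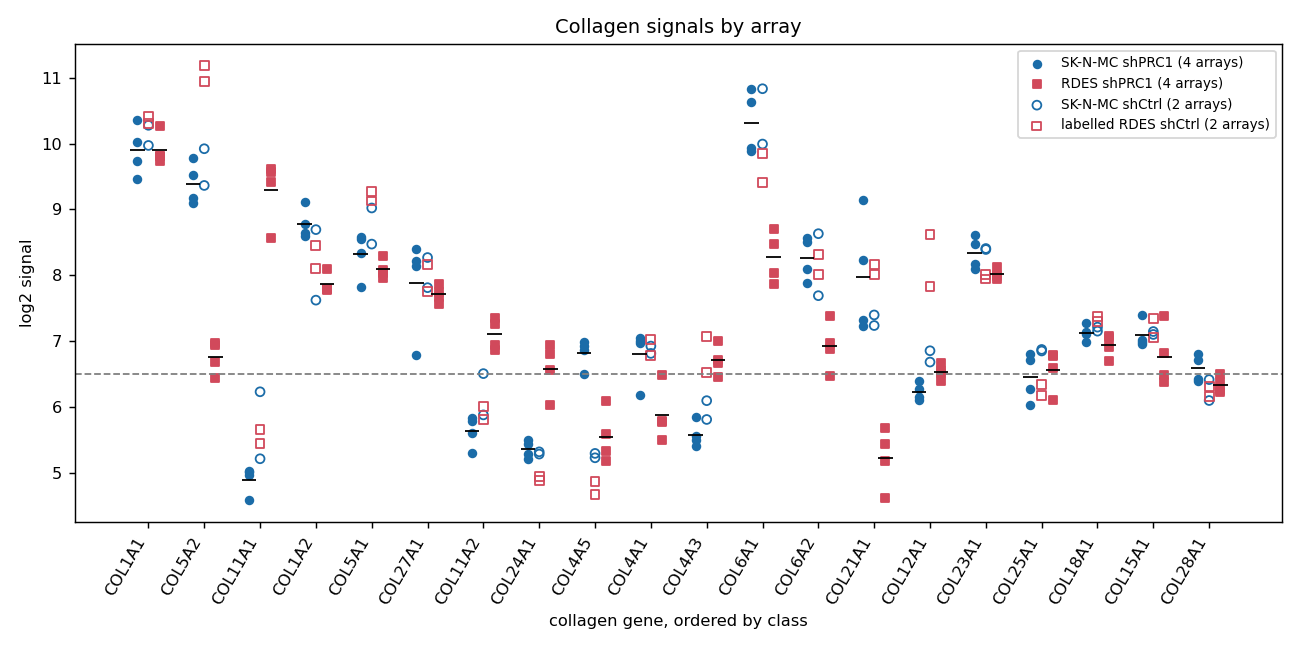
Log2 signal of the 20 collagen genes with a mean of at least 6.5 in SK-N-MC or RDES (y axis), ordered by class (x axis), with filled points for the shPRC1 arrays, open points for the shCtrl arrays, a short black line for the mean of 4 shPRC1 arrays and a dashed line at 6.5. COL5A2, COL6A1 and COL21A1 stand higher in SK-N-MC and COL11A1 higher in RDES, and the open squares labelled RDES shCtrl lie above all filled points for COL5A1, COL5A2, COL12A1 and COL18A1.

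The collagen genes of SK-N-MC and RDES differed in both directions. SK-N-MC had the higher signal of COL21A1, COL5A2, COL6A1, COL6A2, COL4A5, COL1A2 and COL4A1, and RDES that of COL11A1, COL11A2, COL24A1 and COL4A3. By limma's moderated test with Benjamini-Hochberg adjustment over all genes, 11 of the 41 members were higher in SK-N-MC, against 10.7% of all genes, and 4 were higher in RDES, against 8.96% (15 of 41 and 19.7% in both directions together). Of these 15, 4 (COL2A1, COL9A3, COL16A1 and COL19A1) were at background in both lines. That leaves 7 and 4 members above background in at least 1 line. Among the latter, COL4A3 rests on a probe set without an Entrez ID, and on the one that carries it both lines were at background. The arrays of the 2 cell lines did not overlap for 11 members higher in SK-N-MC, against 14.1% of all genes, and for 4 higher in RDES, against 10.7%. Over the 41 members the median difference, SK-N-MC minus RDES, was 0.21, beside 0.06 over all genes. The 11 members became 6 when the SK-N-MC shCDS pair was left out and 4 in the arrays with Dox alone, which leaves 1 array per line. In both directions together, 8 of 41 members were called with Dox alone, against 9.14% of all genes. With a floor of 6.5 over the 8 arrays 6 of 13 were called, against 36.8% of all genes. Where 1 line was at background, the fitted difference rests on a signal under the floor, and only the fold of the other line above the floor is measured. That was at least 1.52-fold for COL11A2, 1.25-fold for COL4A5, 1.23-fold for COL4A1, 1.16-fold for COL4A3 and 1.06-fold for COL24A1. From bulk RNA, fewer cells that express a gene and less RNA per cell cannot be told apart.

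**Figure D2:**
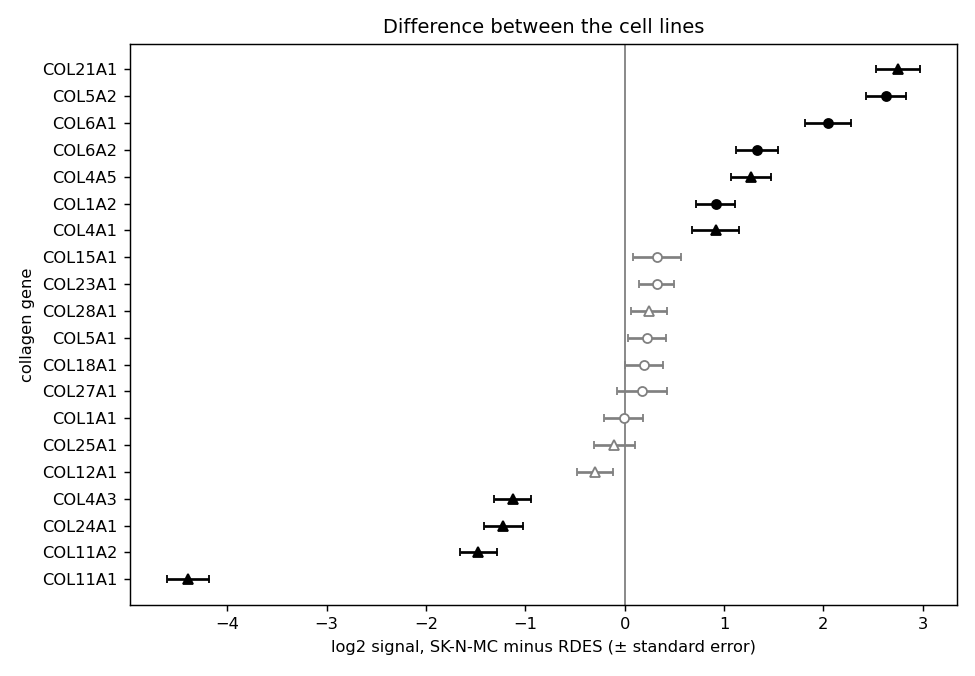
Difference in log2 signal between SK-N-MC and RDES (x axis) for the 20 collagen genes above background in at least 1 line, with the standard error of the limma fit over 4 derivative lines as bars, filled symbols for an adjusted p under 0.05, circles for genes above background in both lines and triangles for genes at background in 1 line, whose exact size is not measured. Of the circles, COL5A2 at 2.63 and COL6A1 at 2.05 lie farthest from 0.

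Among the fibrillar genes, COL11A1 showed the largest difference of any collagen gene. It encodes the alpha 1 chain of type XI collagen, a minor component of cartilage fibrils that helps to set their diameter. The RDES shPRC1 arrays read 8.57, 9.57, 9.61 and 9.42. Those of SK-N-MC read 4.97, 5.01, 4.59 and 5.02, all at background. The 4 RDES arrays thus lay far above all 4 SK-N-MC arrays. SK-N-MC shCtrl read 5.22 and 6.23 and the pair labelled RDES shCtrl 5.66 and 5.45, all under the floor. The RDES mean was 9.29 ± 0.49 (SD, n = 4 arrays), at least 6.93-fold above the floor, and the limma difference was −4.39 (SE 0.21, adjusted p = 1.07e-06).

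COL11A2, which encodes the alpha 2 chain of the same collagen, differed the same way. It read 6.95, 7.35, 7.27 and 6.87 on the RDES shPRC1 arrays, against 5.60, 5.84, 5.79 and 5.31 for SK-N-MC. The arrays did not overlap, and the difference was −1.47 (SE 0.18, limma adjusted p = 0.000413). One of the 4 shCtrl arrays, SK-N-MC shCtrl with Dox at 6.51, was nearer to RDES, and the others were at 5.81 to 6.01. COL2A1, which encodes the third chain of cartilage type XI and the main fibril collagen of cartilage, was at background in both lines. COL24A1, a fibrillar gene linked to developing bone, was the third fibrillar member higher in RDES, with 6.57, 6.95, 6.03 and 6.80 for RDES and 5.50, 5.30, 5.22 and 5.44 for SK-N-MC. These groups did not overlap either, with a difference of −1.22 (SE 0.20, limma adjusted p = 0.00177), and the RDES mean of 6.59 stood just over the floor. SK-N-MC shCtrl read 5.32 and 5.29 for COL24A1, and the pair labelled RDES shCtrl 4.89 and 4.94.

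COL5A2, the alpha 2 chain of type V collagen, which starts fibrils and controls their width, went the other way. Its SK-N-MC shPRC1 values were 9.78, 9.10, 9.52 and 9.17, and its RDES values 6.68, 6.45, 6.94 and 6.98. No RDES array came near the SK-N-MC arrays, and SK-N-MC was 6.19-fold higher (log2 difference 2.63, SE 0.20, limma adjusted p = 1.96e-05). The SK-N-MC shCtrl arrays, at 9.36 and 9.92, lay with the other SK-N-MC arrays. Those labelled RDES shCtrl were the brightest of all 12, at 11.18 and 10.94. COL5A1, its partner in the trimer, showed no such gap, with means of 8.32 ± 0.35 for SK-N-MC and 8.09 ± 0.15 for RDES (SD, n = 4 arrays, difference 0.23, limma adjusted p = 0.499). It too was highest under the RDES shCtrl label, with 9.13 and 9.27.

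The partners of type I collagen, the main collagen of bone and skin, depended on the probe set. COL1A2, the alpha 2 chain, read 9.11, 8.78, 8.59 and 8.65 for SK-N-MC and 7.79, 7.80, 8.09 and 7.78 for RDES. SK-N-MC was 1.89-fold higher with no overlap (log2 difference 0.92, SE 0.20, limma adjusted p = 0.00894), but the shCtrl arrays, at 7.62 and 8.69 for SK-N-MC and 8.10 and 8.46 under the RDES label, spanned both. The difference was 0.75 (limma adjusted p = 0.0944) when the SK-N-MC shCDS pair was left out, and in the arrays with Dox alone 0.92 (adjusted p = 0.0657).

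For COL1A1, the alpha 1 chain, the annotation names a pair of probe sets, of which the brighter carries no Entrez ID. On it the means were 9.90 for SK-N-MC and 9.91 for RDES, a difference of −0.01 (SE 0.20, limma adjusted p = 0.982). The probe set that carries the Entrez ID of COL1A1, looked at after the values were seen, read 7.61, 6.94, 7.93 and 7.33 for SK-N-MC and 5.65, 5.28, 5.59 and 5.44 for RDES. There all SK-N-MC arrays lay above all RDES arrays and the difference was 1.96 (SE 0.20, limma adjusted p = 0.000107), the same direction as COL1A2. On this probe set the shCtrl pairs read 6.77 and 7.33 for SK-N-MC and 7.32 and 7.64 under the RDES label, all above the RDES shPRC1 arrays. Which of the probe sets reads the COL1A1 transcript was not tested, and the counts over all members use the brighter one.

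**Figure D3:**
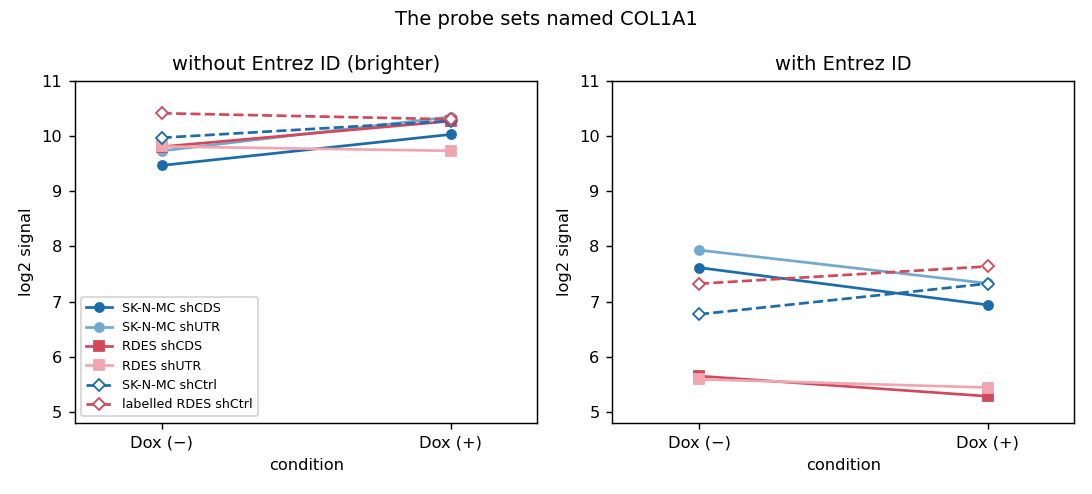
Log2 signal (y axis) without and with Dox (x axis) of the probe sets named COL1A1, the brighter one without an Entrez ID on the left and the one with an Entrez ID on the right, 1 line per derivative line. The cell lines lie together on the left and apart on the right, where the 4 RDES shPRC1 values run from 5.28 to 5.65.

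The last fibrillar gene above background, COL27A1, a cartilage and growth plate collagen, had means of 7.89 for SK-N-MC and 7.71 for RDES and did not pass the test (difference 0.17, limma adjusted p = 0.727).

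Type VI collagen is secreted as a trimer of an alpha 1, an alpha 2 and an alpha 3 chain. COL6A1, the alpha 1 chain, read 10.63, 9.88, 10.83 and 9.93 on the SK-N-MC shPRC1 arrays. The RDES values were 7.87, 8.04, 8.48 and 8.70. The lowest SK-N-MC array stood above the highest RDES array by more than either line's SD, and SK-N-MC was 4.13-fold higher (log2 difference 2.05, SE 0.23, limma adjusted p = 0.000239). The shCtrl pairs read 9.99 and 10.83 for SK-N-MC and 9.40 and 9.85 under the RDES label, all nearer to the SK-N-MC mean. COL6A2, the alpha 2 chain and the neighbour of COL6A1 on chromosome 21, followed it. It read 8.50, 8.10, 8.56 and 7.88 for SK-N-MC and 6.88, 6.47, 6.98 and 7.38 for RDES, a 2.52-fold difference with no overlap (log2 1.33, SE 0.21, limma adjusted p = 0.00178). For COL6A2, SK-N-MC shCtrl read 7.69 and 8.63 and the pair labelled RDES shCtrl 8.02 and 8.32, within the SK-N-MC range or near it. The call was lost in the arrays with Dox alone (1.06, adjusted p = 0.0954) and with the mean of the gene's 3 probe sets (0.54, adjusted p = 0.0808). That mean takes in probe sets without an Entrez ID that were at background in both lines. Their SK-N-MC and RDES means were 5.68 and 5.69 on one and 4.35 and 4.05 on the other.

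COL6A3, the alpha 3 chain, was at background on every array, between 3.93 and 5.28, although its partners were among the brighter collagen probe sets. COL6A5 and COL6A6, chains that can take the place of alpha 3, were at background as well, with line means of 4.98 and 5.05 for COL6A5 and of 6.35 and 5.91 for COL6A6 in SK-N-MC and RDES. A signal under the floor is no measured level, and no fold is given for these genes.

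Type IV collagen genes lie in head-to-head pairs that share the DNA between their starts. By the starts in the RefSeq promoter table for GRCh38.p14, those of COL4A1 and COL4A2 on chromosome 13 lie 127 bases apart, those of COL4A3 and COL4A4 on chromosome 2 lie 419 apart and those of COL4A5 and COL4A6 on the X chromosome 380 apart. In each pair no more than 1 partner was above background. For COL4A3 this rests on a brightest probe set without an Entrez ID. On the one that carries it, COL4A3 was at background like COL4A4. COL4A1, which with COL4A2 makes the general basement membrane trimer, ran from 6.18 to 7.05 over the SK-N-MC and from 5.50 to 6.48 over the RDES shPRC1 arrays. The groups overlapped, and the difference of 0.91 (SE 0.24, limma adjusted p = 0.0223) passed in 9 of 12 alternatives, with adjusted p up to 0.465. COL4A2 had line means of 6.42 and 6.16, the first being the highest of any member called background.

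COL4A5, an X-linked chain whose defects cause Alport syndrome, was higher in SK-N-MC, at 6.98, 6.93, 6.87 and 6.504 against 5.33, 6.10, 5.59 and 5.19 in RDES (difference 1.27, SE 0.20, limma adjusted p = 0.00176). The arrays did not overlap, but in the arrays with Dox alone the call was lost (1.08, adjusted p = 0.102). Its SK-N-MC shCtrl arrays read 5.23 and 5.30 and the pair labelled RDES shCtrl 4.68 and 4.87, all under the floor. Of the called members above the floor, only COL4A5 had all 4 shCtrl arrays nearer to the RDES mean. COL4A6, its neighbour, stayed between 4.23 and 5.37 on all arrays. COL4A3, a chain of the kidney and lung basement membrane, was higher in RDES on its brightest probe set, at 6.71, 6.67, 6.46 and 7.01 against 5.86, 5.56, 5.41 and 5.51 in SK-N-MC (difference −1.13, SE 0.19, limma adjusted p = 0.00221), with 5.81 and 6.10 for SK-N-MC shCtrl and 7.07 and 6.53 under the RDES label. That probe set lacks an Entrez ID, and on the one that carries it the lines were at 4.21 and 4.31, both background, with a difference of −0.10 (adjusted p = 0.806).

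Of the 41 members, 30 had a promoter window in the RefSeq table for GRCh38.p14, a stretch of 300 bases that lies mostly before the start. The box CCAAT, searched on both strands (ATTGG on the other strand), was in 11 of them, 36.7%, against 34.6% of 35116 windows of all genes. Among the 11, the windows of COL4A1 and COL4A2 overlap, as do those of COL4A5 and COL4A6. The same box can thus count for both partners of a pair. The box TATAAA, also on both strands, was in 5, 16.7%, against 11.5%. GGAAGGAA, a tandem of the core that ETS factors bind, searched on both strands, was in 0, against 3.67% of all windows. The share of members with each box stood near that of all genes for CCAAT, and the small numbers allow no more for the others. The type IV windows are shown because they lie between paired starts, and the others because COL11A1 and COL6A2 differed between the cell lines. Each is a stretch of 30 bases, 5′ to 3′ on the strand of the gene, with the matched box in capitals.
COL4A1 (chr13:110307166-110307195, minus strand): cagcgccaacaaATTGGggagctcggcccg
COL4A5 (chrX:108439588-108439617, plus strand): acaCCAATgagattggaactgagcctagaa
COL11A1 (chr1:103108615-103108644, minus strand): cagagtcgtgtgATTGGgtctgaccctcag
COL6A2 (chr21:46098068-46098097, plus strand): ggcggggcggggTATAAAgggggcggcgcc
The box begins 26 bases before the start in COL4A1, inside the interval shared with COL4A2. In COL4A5 a further match on the other strand stands in lower case in the same stretch. A match of letters is a description and no measured site of binding.

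Of the FACIT collagens, COL21A1, a collagen of vessel walls and other connective tissue, was well above the floor. It read 7.32, 8.23, 7.23 and 9.15 for SK-N-MC. In RDES it was at background, with 4.62, 5.44, 5.18 and 5.68. The arrays of the cell lines did not overlap, and SK-N-MC, with a mean of 7.98 ± 0.90 (SD, n = 4 arrays), stood at least 2.79-fold above the floor (difference 2.75, SE 0.22, limma adjusted p = 2.85e-05). The shCtrl arrays went with SK-N-MC, at 7.24 and 7.40 for SK-N-MC shCtrl and 8.02 and 8.17 under the RDES label. COL12A1, a collagen of dense connective tissue, had means of 6.24 and 6.53 and did not pass (limma adjusted p = 0.331), yet the arrays labelled RDES shCtrl were at 8.62 and 7.83, above every shPRC1 array, the highest of which was 6.68.

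The remaining members above background gave no call between the lines. The transmembrane collagen COL23A1 had means of 8.34 for SK-N-MC and 8.02 for RDES, and COL25A1, a transmembrane collagen of neurons, 6.46 and 6.57. The multiplexins, found in basement membrane zones, were at 7.13 and 6.94 for COL18A1, the source of endostatin, and at 7.09 and 6.77 for COL15A1. COL28A1, a collagen of peripheral nerve, was at 6.59 and 6.34. None of these 5 passed limma's test in this comparison, with adjusted p from 0.272 to 0.803.

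The shCtrl arrays were set against the 11 called members above the floor. Both arrays labelled RDES shCtrl were nearer to the SK-N-MC mean than to the RDES mean for 8 of the 11. Taken singly they were nearer to SK-N-MC for 8 and 9 members without and with Dox, and the SK-N-MC shCtrl arrays for 9 and 9. No share over all called genes was taken for these counts. For COL11A1, COL11A2 and COL24A1 the arrays labelled RDES shCtrl and the SK-N-MC mean were all under the floor. COL5A1, COL5A2, COL12A1 and COL18A1 were higher in the arrays labelled RDES shCtrl than in all 8 shPRC1 arrays. For COL18A1 the gap was small, with 7.37 and 7.30 against 7.27 on the highest shPRC1 array. The share of all genes for which this held was not taken.

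Among the genes that modify, carry, trim or bind collagen, some passed the same test. Of a list of 53, 49 were measured and 32 reached the floor in at least 1 line. By limma 15 of the 49 were higher in SK-N-MC, against 10.7% of all genes, 6 were higher in RDES, against 8.96%, and 28 did not pass. LOX, the lysyl oxidase that crosslinks fibrils, was at 10.95 ± 0.88 in SK-N-MC and 5.49 ± 0.64 in RDES, where it was at background (SD, n = 4 arrays), at least 21.8-fold above the floor (limma adjusted p = 1.42e-06). The shCtrl pairs read 12.19 and 12.44 for SK-N-MC and 15.22 and 14.68 under the RDES label, the highest LOX signals of the 12 arrays. PCOLCE, which enhances the trimming of procollagen, was at 12.87 and 8.56 (difference 4.31, adjusted p = 1.93e-05). The collagen-degrading protease CTSK differed by 3.14, the lysyl hydroxylase PLOD2 by 3.01, the fibrillar collagen receptor DDR2 by 2.77 and the secretory coat subunit SEC24D by 2.14, all higher in SK-N-MC. For these 4 and PCOLCE, too, the means of both shCtrl pairs lay with SK-N-MC, those labelled RDES shCtrl at 10.84 for CTSK, 14.85 for PLOD2, 13.99 for DDR2, 12.58 for SEC24D and 14.47 for PCOLCE. FKBP10, a collagen chaperone, went the other way, with 9.65 for RDES, at least 8.85-fold above the floor, and 5.71, background, for SK-N-MC (limma adjusted p = 8.20e-07). Its shCtrl pairs did not follow their labels or each other, since SK-N-MC shCtrl read 7.27 and 7.14, above the floor, and the pair labelled RDES shCtrl 5.41 and 5.25, under it. The list also held members that were near equal, such as the collagen chaperone SERPINH1 at 14.73 and 14.57.

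Fibroblast markers other than collagens differed in part between the lines. Of 9 listed, all measured, 6 had all SK-N-MC arrays above all RDES arrays, against 14.1% of all genes, and 1 the reverse, against 10.7%. Of the 6, DCN, LUM, PDGFRB, FAP and PRRX1 were above background in at least 1 line and TWIST2 was at background in both. THY1, at 13.22 and 13.17, and POSTN, at background, overlapped. Over the 9 markers the mean log2 signal ran from 8.32 to 8.94 over the shPRC1 arrays of SK-N-MC and from 7.13 to 7.35 over those of RDES. PDGFRA was at background in both lines, at 5.48 and 6.19. DCN was at 10.27 in SK-N-MC and at background, 6.32, in RDES, and LUM was at 9.10 and 6.88. The arrays labelled RDES shCtrl were the brightest for both, at 12.86 and 12.29 for DCN and 11.93 and 11.47 for LUM. Other lists differed as well. Without overlap, 4 of 6 EwS markers were higher in RDES and 1 in SK-N-MC. Of 6 epithelial markers 2 were higher in SK-N-MC and 1, at background, in RDES, and of 5 haematopoietic markers 1 in SK-N-MC. The part of any of these markers in the collagen differences was not tested.

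The change with Dox was described for the 13 members with a mean of at least 6.5 over the 6 Dox (−) arrays, which 15247 genes reached. This floor was passed by COL4A1 at 6.57 and COL21A1 at 6.60 and just missed by COL11A1 at 6.44 and COL4A2 at 6.41. COL4A1, COL12A1 and COL21A1 passed it only through the shCtrl arrays, since their means over the 4 shPRC1 arrays without Dox were under 6.5. No collagen gene passed the limma test for PRC1 silencing, in which the shCtrl difference of the same labelled line is subtracted. The count was 0 of 13 members and 0% of all genes, and at an unadjusted p under 0.05 it was 5 members, against 2.63% of all genes. Of these 5, COL1A2, COL6A1, COL6A2 and COL27A1 were lower and COL21A1 was higher. The 5 depended on the shCtrl pairs. They became 4 with the mean of both pairs subtracted and 1 with no subtraction. All adjusted p were 0.999, and they ran from 0.630 to 1 over the alternatives. The median over the members was −0.04, beside −0.01 over all genes, and it ran from −0.54, without the pair labelled RDES shCtrl, to 0.19 with 1 derivative line left out. The subtraction used the arrays labelled RDES shCtrl for both RDES lines and SK-N-MC shCtrl, which stood apart in STAG2, for both SK-N-MC lines.

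Before subtraction, COL21A1 was the collagen gene with the largest difference of one sign. It was higher with Dox in all 4 shPRC1 lines, by 0.90 (shCDS) and 1.92 (shUTR) for SK-N-MC and 0.83 (shCDS) and 0.50 (shUTR) for RDES, a mean of 1.04 ± 0.61 (SD, n = 4 lines). In the shCtrl lines it differed by 0.16 and 0.15. All 4 shPRC1 differences thus exceeded both shCtrl differences, but the RDES values lay under the floor on both sides. COL21A1 entered the 13 members only through the shCtrl arrays without Dox, at 7.24 for SK-N-MC and 8.02 under the RDES label. The shPRC1 arrays without Dox read 7.32 and 7.23 for SK-N-MC and 4.62 and 5.18 for RDES. After subtraction the mean was 0.88 (SE 0.36, limma adjusted p = 0.999), and without the SK-N-MC shUTR pair it was 0.61. COL23A1, by 0.02 to 0.52, and COL18A1, by 0.04 to 0.22, were the other members above 0 in all 4 lines. These 3 of 13 stand beside 7.14% of all genes, and the members below 0 in all 4 lines were 0, beside 5.11%. After subtraction, as in the test, 4 were below 0 in all 4 lines (COL1A2, COL5A1, COL6A1 and COL27A1), beside 7.55% of all genes, and 3 above (COL1A1, COL18A1 and COL21A1), beside 9.11%, with the shCtrl pair shared by both lines of a label. COL1A1 was above 0 there on its brighter probe set only. On the probe set with the Entrez ID it was below 0 in all 4 lines.

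**Figure D4:**
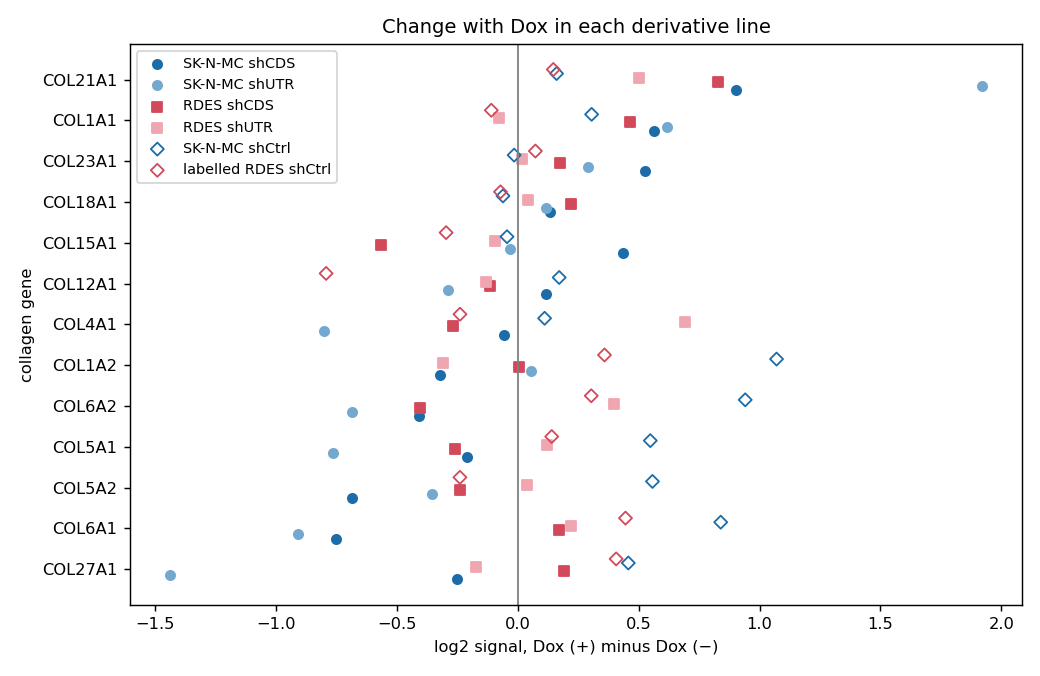
Difference in log2 signal, Dox (+) minus Dox (−), in each of the 6 derivative lines (x axis) for the 13 collagen genes above the floor without Dox (y axis), ordered by the mean over the 4 shPRC1 lines, with open diamonds for the shCtrl lines. COL21A1 lies to the right of 0 in every line, and COL6A1 has its SK-N-MC points at −0.75 and −0.91 and its RDES points at 0.17 and 0.22.

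COL6A1 was lower with Dox in both SK-N-MC shPRC1 lines, by 0.75 in shCDS and 0.91 in shUTR, and higher in both RDES lines, by 0.17 and 0.22. Its signal was also higher with Dox in the shCtrl lines, by 0.84 for SK-N-MC and 0.45 under the RDES label. The subtraction of these values gave a mean of −0.96 (SE 0.35, limma adjusted p = 0.999), against −0.32 before it, so that most of the value came from the shCtrl arrays. Without the SK-N-MC shCtrl pair it was −0.25, and without the pair labelled RDES shCtrl −1.67. The difference between the cell lines in the change, RDES minus SK-N-MC, was 1.03 (SE 0.37, limma adjusted p = 0.954). In that comparison 0 of 13 members passed, against 0.0131% of all genes, and COL6A1 was the only member at an unadjusted p under 0.05, against 4.51%.

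COL6A2 and the type V chains were set beside COL6A1. With shCDS and shUTR in turn, COL6A2 differed by −0.41 and −0.68 for SK-N-MC and by −0.40 and 0.40 for RDES, with 0.94 and 0.30 for the shCtrl lines. COL5A2 differed by −0.68 and −0.35 for SK-N-MC and by −0.24 and 0.04 for RDES, with 0.56 and −0.24 for the shCtrl lines. COL5A1 differed by −0.21 and −0.76 for SK-N-MC and −0.26 and 0.12 for RDES, with 0.55 and 0.14 for the shCtrl lines. In each the SK-N-MC shPRC1 lines were below 0 while the SK-N-MC shCtrl line was above it. Of the 13 members, 6 were below 0 in both SK-N-MC shPRC1 lines, against 30.4% of all genes, and 4 were above 0 in both, against 22.8%. In the RDES lines 2 were below 0 in both, against 14.3%, and 4 above, against 29.8%.

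**Figure D5:**
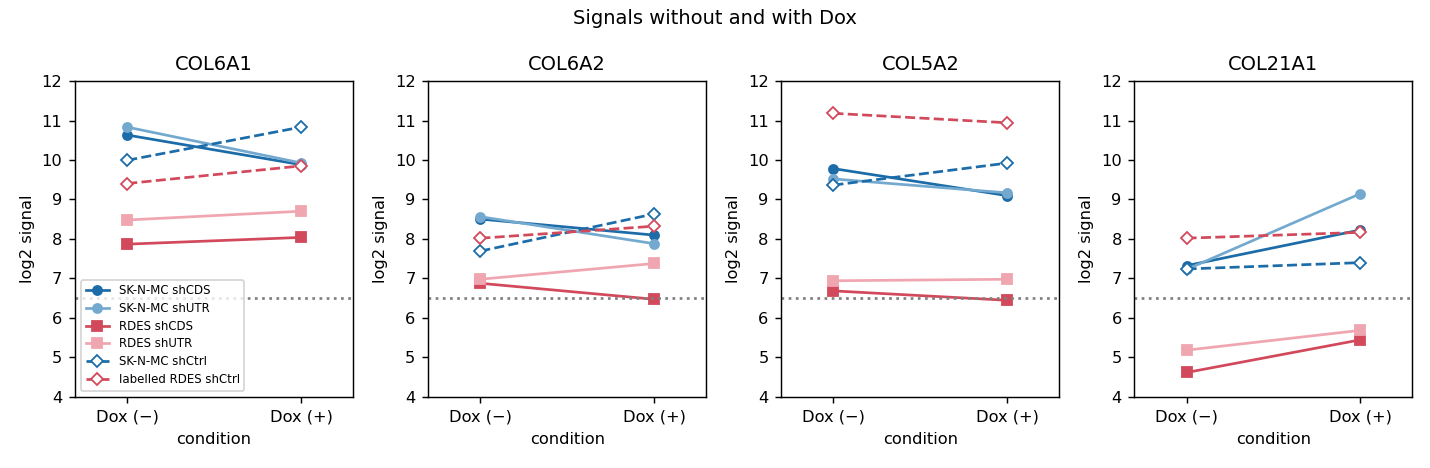
Log2 signal (y axis) without and with Dox (x axis) of COL6A1, COL6A2, COL5A2 and COL21A1, 1 line per derivative line, dashed for shCtrl, with the floor of 6.5 dotted. COL21A1 is higher with Dox in each line, from 7.23 to 9.15 in SK-N-MC shUTR, while the other 3 genes are lower with Dox in the SK-N-MC shPRC1 lines and higher in SK-N-MC shCtrl.

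Few members differed by as much as 1 on the log2 scale in a single pair. In SK-N-MC shUTR, COL27A1 was lower by 1.44, from 8.22 to 6.79, and COL21A1 higher by 1.92, beside 2.98% and 0.59% of all genes past that size in the same direction. COL1A2 was higher by 1.07 in SK-N-MC shCtrl, where 0.636% of all genes were past it, and differed by −0.32 and 0.06 (shCDS, shUTR) for SK-N-MC and by 0.01 and −0.31 for RDES. No member reached that size in the other 4 lines. There the shares of all genes lower and higher by that much were 1.48% and 0.912% for SK-N-MC shCDS, 3.97% and 1.14% for RDES shCDS, 0.216% and 1.08% for RDES shUTR, and 0.0787% and 0.0197% under the RDES shCtrl label, and 0.407% were lower in SK-N-MC shCtrl. Over the 13 members, 10 were above 0 with Dox in SK-N-MC shCtrl, 7 in the line labelled RDES shCtrl, 6 (shCDS) and 5 (shUTR) for SK-N-MC, and 7 (shCDS) and 8 (shUTR) for RDES. The median difference was 0.31 in SK-N-MC shCtrl, beside 0.11 over all genes, and −0.29 in SK-N-MC shUTR, beside −0.15. In the other 4 lines it lay between −0.06 and 0.07.

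COL1A1 again depended on the probe set. On the brighter one it was higher with Dox by 0.56 (shCDS) and 0.62 (shUTR) for SK-N-MC and by 0.46 for RDES shCDS, and differed by −0.08 for RDES shUTR. On the probe set with the Entrez ID it was lower in all 4 lines, by 0.68, 0.60, 0.37 and 0.15 in the same order, and higher in the shCtrl lines, by 0.56 and 0.31. The mean after subtraction was 0.29 on the first and −0.88 on the second, and neither passed the limma test (adjusted p = 0.999 for both). The mean difference of COL4A1 before subtraction was −0.11 ± 0.62, of COL12A1 −0.10 and of COL15A1 −0.06, each with both signs among the 4 lines.

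The genes that process collagen gave no call for silencing either. Of 31 above the floor without Dox, 0 passed and none had the same sign in all 4 shPRC1 lines. Of the 31, 16 were below 0 in both SK-N-MC shPRC1 lines, against 30.4% of all genes, and 1 was above 0 in both, against 22.8%. For RDES 0 were below 0 in both, against 14.3%, and 7 above, against 29.8%. Examples chosen after their values were seen are the prolyl hydroxylase subunit P4HA1, at −1.25 (shCDS) and −0.85 (shUTR) for SK-N-MC and 0.19 and 0.08 for RDES, and PLOD2, at −0.93 and −0.97 for SK-N-MC and −0.38 and 0.06 for RDES. In the difference between the cell lines in the change 0 of the 31 passed limma's test, and 4 were at an unadjusted p under 0.05, against 4.51% of all genes.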

How the data were processed

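Expression was measured in SK-N-MC and RDES cells on 12 arrays, 1 for each condition, from total RNA. Per probe set, the authors deposited a log2 signal obtained by SST-RMA (background correction, quantile normalization and summary of probes). The paper's methods name Transcriptome Analysis Console, the series' design text names Expression Console. RMA and hg38 are the tool and build in the submitters' processing notes. Quantile normalization gives every array the same distribution, and array medians ran from 5.29 to 5.40. The number of arrays limits the precision.

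Gene symbols came from GEO's platform annotation, where 36176 of 135750 probe sets have a single symbol, 1119 several and 98455 none, the last 2 kinds being left out. Each of the 33616 genes was read from its brightest probe set. Of 44 collagen genes considered, 41 were measured, COL3A1 and COL7A1 being on probe sets with several symbols and COL17A1 not analysed here. The brightest probe set carried an Entrez ID in 39 of 41 members, and all 39 matched the RefSeq symbol. Coordinates and promoters are from RefSeq (GRCh38.p14).

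Levels were compared with limma 3.58.1 in R 4.3.3 on the mean of the Dox (−) and Dox (+) arrays of each derivative line, 2 lines a cell line, over all genes. Silencing was fitted on the 6 Dox (+) minus Dox (−) differences with terms for labelled cell line and shPRC1 against shCtrl, over 15247 genes at 6.5 or above. The difference between cell lines was fitted on the 4 shPRC1 differences. Tests were two-sided, with Benjamini-Hochberg adjustment and a threshold of 0.05. Comparisons share arrays, and both RDES lines and both SK-N-MC lines share a shCtrl pair. The fits were tested on simulated data. Alternatives changed the arrays, filter, probe set, centring, covariates, prior and subtraction, and left out each line. The members, gene lists and tests were chosen with earlier results of these data known. All members above the floor are named, with every array for COL6A1, for the 10 largest differences among them and for members of one sign in all 4 lines with a mean of at least 0.5. Of the genes that process collagen, those called with a difference of at least 2 are named. Other genes were named after their values were seen.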

Additional observations from a re-analysis of the deposited data

Results flagged for a closer look

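Dixon's critical value was applied to 53 groups of 4 values. Some groups held the 4 shPRC1 Dox differences of each of the 13 members above the floor without Dox. The others held the 4 shPRC1 arrays of a cell line, for each of the 20 members above background. In 6 groups, all of them groups of arrays, 1 array stood apart from the other 3 by more than that value. Chance marks about 1 in 20 groups. In SK-N-MC these were COL4A1 in shUTR with Dox at 6.18, COL27A1 in shUTR with Dox at 6.79, COL11A1 in shUTR without Dox at 4.59, under the floor, and COL15A1 in shCDS with Dox at 7.39. In RDES they were COL1A2 in shUTR without Dox at 8.09 and COL1A1 in shCDS with Dox at 10.27.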

How the results depend on the processing

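No paired analysis was possible because the labels give every group the single replicate number 1, other than the pairing of the Dox (−) and Dox (+) arrays of a derivative line, on which the fits of the Dox differences already rest. Of 174 values of single genes under alternatives, 168 kept their direction and their side of the threshold, 6 kept the direction and lost the call, and none reversed. These values cover only COL6A1 and the other largest line differences, and for Dox COL6A1 and COL21A1, which had no call to lose. COL1A1 was not among them. Of the other called members, COL19A1 was called in 11 of 12 alternatives, COL16A1 in 10, COL4A1 in 9, COL9A3 in 8 and COL2A1 in 6. The 11 members higher in SK-N-MC became 4 in the arrays with Dox alone and 5 with a floor of 6.5 over the 8 arrays, which tests only 13 members, and 6 to 10 with 1 derivative line left out, the lowest without SK-N-MC shCDS. The 4 members higher in RDES became 1 with that floor. In both directions together, 8 of 41 members were called in the arrays with Dox alone, against 9.14% of all genes. With that floor 6 of 13 were called, against 36.8% of all genes. Of the genes that process collagen, 9 (of 15) and 2 (of 6) were called in the arrays with Dox alone, and 3 to 7 of the second kind with 1 line left out, the lowest without SK-N-MC shUTR. Their difference in change between the lines went from 0 calls to 0 to 1 with 1 line left out, the call arising without RDES shUTR, an alternative added after seeing the data. The median change of the members with silencing, −0.04, was −0.47 with the floor set over the 4 shPRC1 arrays without Dox, −0.54 with a floor of 8, −0.47 with the probe set that carries the Entrez ID, also added after seeing the data, and −0.54 to 0.19 with 1 line left out, including −0.54 without the pair labelled RDES shCtrl and −0.32 without RDES shUTR. The cause of these shifts was not tested, apart from the fewer genes or arrays that a setting leaves. With the Entrez probe sets 15 members were again called between the lines, 14 of them the same, with COL1A1 in and COL4A3 out. Signals under 6.5 limit what can be said of 21 members.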
